A study of Homo sapiens and Mus musculus with 16 samples.

Results

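The genes described here are 8 genes of the YAP/TEAD axis, chosen by name: the YAP/TEAD targets CTGF, CYR61, ANKRD1, AMOTL2, AXL and LATS2, the coactivator YAP1 and the DNA-binding factor TEAD1. All 8 were among the 22314 genes of the mRNA table, and 6 of them had a mean of at least 1 FPKM over the libraries, as had 5445 genes of the table. CTGF and CYR61 are the older symbols of CCN2 and CCN1. SK-HEP-1 cells, a human line that the study uses as hepatocellular carcinoma, were grown in DMEM with serum and received, in fresh medium, either an ethanol extract of the fruiting bodies of the fungus Antrodia cinnamomea (AcFBE, 0.5 mg/ml) or DMSO alone, in which the extract was dissolved. Polyadenylated RNA was sequenced after 2 or 4 h, which gave 4 libraries: 2U and 4U (DMSO) and 2T and 4T (AcFBE). There was 1 library per condition, so no value has a replicate and no test was made. Libraries were made from bulk cells, so fewer cells with a transcript and less transcript per cell cannot be told apart.

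YAP1 and its relative WWTR1 (TAZ) are coactivators without a DNA-binding domain of their own, and they switch on genes by binding TEAD factors. The Hippo kinase cascade, which ends in LATS1 and LATS2, phosphorylates YAP1 and keeps it out of the nucleus. CTGF, CYR61 and ANKRD1 are the transcripts most often read as a measure of YAP activity, and AMOTL2 and LATS2 are targets that act back on YAP1 as inhibitors. In liver the pathway is known for restraining organ size, and YAP1 is often active in liver cancer. YAP1 is controlled largely through its phosphorylation and location, which an mRNA level does not measure.

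The letters that TEAD factors are known to recognise are GGAATG, or CATTCC on the other strand, and the stretches that hold them are shown here to set the promoters of the targets beside their levels. Promoter windows of RefSeq (250 bases before to 50 after a start site, table of build GRCh38.p14) were found for 6 of the 8 genes, and none was found for CYR61 and TEAD1. All 8 windows of these 6 genes had 1 exact match in GRCh37, and the positions below are those of GRCh37. The CTGF window held 3 copies, a number that 0.128% of 35116 windows reached or passed, and the ANKRD1 window held 2, against 1.37% of windows with at least that number. One copy stood in the windows of YAP1 and LATS2 and in 1 of 2 windows each of AMOTL2 and AXL, against 14.0% of all windows with at least 1 copy. For AMOTL2 and AXL this was the window of a start site inside the gene, from which the distances below are counted. The window at the 5′ end of each of these genes held 0 copies. The copy in the LATS2 window did not lie wholly within the 250 bases before the start. No stretch is printed for LATS2 or for the coactivator YAP1. The following 30-base stretches are printed 5′ to 3′ on the strand of the gene, with the searched letters in capitals.
CTGF, chr6:132272595-132272624, minus strand, 112 to 83 bases before the start: ggtggggaGGAATGcgaGGAATGtccctgt
CTGF, chr6:132272664-132272693, minus strand, 181 to 152 bases before the start: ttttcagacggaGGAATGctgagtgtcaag
ANKRD1, chr10:92681047-92681076, minus strand, 232 to 203 bases before the start: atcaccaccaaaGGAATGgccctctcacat
ANKRD1, chr10:92680955-92680984, minus strand, 140 to 111 bases before the start: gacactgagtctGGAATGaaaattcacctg
AMOTL2, chr3:134093341-134093370, minus strand, 81 to 52 bases before the start: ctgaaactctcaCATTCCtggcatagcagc
AXL, chr19:41732436-41732465, plus strand, 224 to 195 bases before the start: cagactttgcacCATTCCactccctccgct
The promoters of CTGF and ANKRD1, whose levels differed from the controls in opposite directions, thus both held more than 1 copy. Such a match is a description of the letters and not evidence of binding.

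The authors deposited FPKM, fragments scaled by transcript length and by the mapped fragments of the library. The unit is meant for comparing levels of different genes, and how well it does so in these libraries was not tested. Genes above 0 numbered 8454 to 10691 per library, and the FPKM summed to 786224 to 845681. The table gives no read numbers. The library 2U stood apart in GAPDH, at 19177 FPKM against 36197 to 43767 in the others. It also had the most genes above 0 and a median log2 FPKM over these genes of -0.30, against 0.30 to 0.75. Values between 0 and 0.2 FPKM were given for 2656 genes of 2U and 1173 of 2T but for none at 4 h. The gene numbers and the medians take in such values, so neither measure is like for like across the libraries. In 2T, 32 genes were listed at 0 that had at least 10 FPKM in each of the other 3 libraries, such as SEPT2, so a value of 0 may be a failed estimate and is given only as listed at 0. TPM1, a widely expressed tropomyosin gene, was likewise listed at 0 in both 2 h libraries but at 375 and 1362 FPKM at 4 h. Of the hepatocyte markers, ALB, APOA1, TTR and HNF4A were listed at 0 in all 4 libraries, AFP was at 0.621 FPKM or less and SERPINA1 at 8.59 to 18.7 FPKM. The 5 endothelial markers (PECAM1, CDH5, VWF, KDR and TEK) were also listed at 0 throughout, as were PTPRC of leukocytes and CDH1 of epithelia. EPCAM was at 0.396 FPKM or less, COL1A1 at 0.271 or less and FN1 at 4.92 to 14.5. The mesenchymal filament gene VIM was at 6465 to 13625 FPKM, and CD44 was listed at 0 in both 2 h libraries and at 196 FPKM (DMSO) and 198 FPKM (AcFBE) at 4 h.

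Each treated level was divided by the DMSO level of its time, and a gene was counted as lower or higher from a 2-fold difference on. The background was every gene above 0 in both libraries with a mean of at least 1 FPKM. At 2 h, 3 of the 8 genes were at least 2-fold lower in 2T (CTGF, AXL and TEAD1), where 18.7% of the 5211 background genes were. Another 3 were at least 2-fold higher (ANKRD1, YAP1 and LATS2), where 22.6% of the background genes were. At 4 h, 3 of the 7 genes with a ratio were at least 2-fold lower in 4T (CTGF, CYR61 and AXL), against 27.7% of 5392 genes, and ANKRD1 alone was higher, against 16.4%. The median log2 ratio of the genes was -0.00 at 2 h and -0.41 at 4 h, beside 0.03 and -0.35 over the background. The 8 genes lay on both sides of the controls. For the 4 genes with at least 1 FPKM in every library (CTGF, CYR61, AMOTL2 and AXL) the medians were -0.97 and -1.53. Of these genes 0 were at least 2-fold higher at either time. That 0 follows from the minimum, which takes out the genes counted as higher (ANKRD1, YAP1 and LATS2), all under 1 FPKM with DMSO at 2 h. The medians near the background thus depend on genes of low level, and no background under the same minimum is given here. Because the median of all genes at 4 h was off 0, lower genes made up 62.9% of those past 2-fold at 4 h as deposited and 41.0% with the ratios centred on that median, and from 4U over 2U the share went from 31.4% to 41.4% and from 4T over 2T from 55.6% to 45.0%. Centred in this way, CTGF was at -4.15 and -4.07, CYR61 at -0.74 and -1.59, ANKRD1 at 2.66 and 2.86 and YAP1 at 1.97 and 0.99 at 2 and 4 h. Of the 6 genes with a mean of at least 1 FPKM, 2 were lower and 2 higher at 2 h, and 3 were lower and 1 higher at 4 h. ANKRD1 and YAP1, the genes counted as higher, are among these 6 only through their treated levels.

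**Figure D1:**
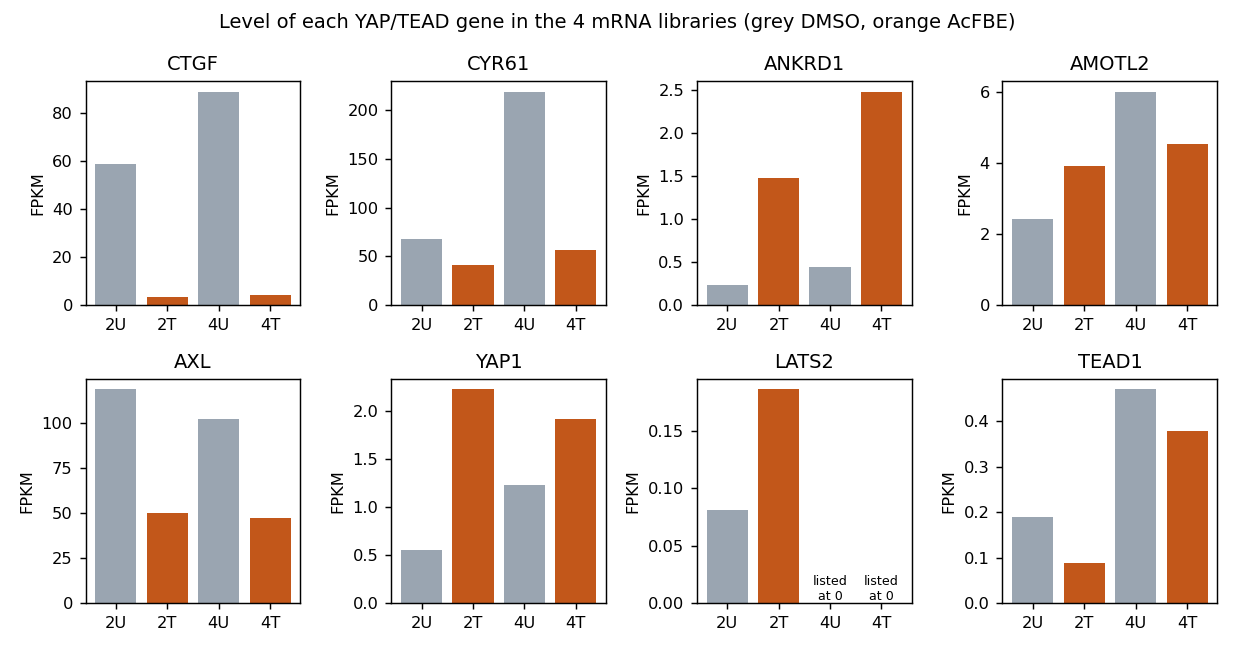
FPKM of each of the 8 genes (vertical axis, linear from 0, a scale of its own in each panel) in the 4 mRNA libraries (horizontal axis), as 1 bar per library, grey for DMSO and orange for AcFBE. CTGF, CYR61 and AXL are lower and ANKRD1 and YAP1 higher in both treated libraries, and LATS2 is listed at 0 at 4 h.

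CTGF, a secreted matrix-associated protein of the CCN family, lies on chromosome 6 of GRCh37 (132269316 to 132272512, minus strand). It was at 58.5 FPKM without and 3.38 with AcFBE at 2 h, and 88.6 without and 4.12 with it at 4 h. Both treated libraries were far below both untreated ones. The level was 17.3-fold lower at 2 h (log2 ratio -4.11) and 21.5-fold lower at 4 h (-4.43). These were the 21st lowest of 5211 ratios and the 19th lowest of 5392. For comparison, the middle 95% of 5328 background genes had a log2 ratio between -1.71 and 2.86 when the untreated libraries of the 2 times were compared (4U over 2U), and CTGF was outside this range at both times. CYR61 was outside it at 4 h. The ratios of the other genes with a value, ANKRD1, AXL and YAP1 among them, lay inside it at both times. This range rests in part on 2U, the library that stood apart in GAPDH and that, unlike 4U, held values under 0.2 FPKM. The middle 95% of the treatment ratios themselves was -2.44 to 3.05 at 2 h and -2.30 to 2.06 at 4 h. By these ranges CTGF was outside at both times and ANKRD1 at 4 h only, and CYR61, AXL and YAP1 were inside at both. Among the genes above 0, 8.01% stood above CTGF without and 38.9% with AcFBE at 2 h, and 7.23% without and 31.3% with it at 4 h.

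CYR61, the other CCN family member measured, lies on chromosome 1 (86046444 to 86050272, plus strand) and encodes a matrix protein that binds integrins. It was at 67.8 FPKM (DMSO) and 41.6 FPKM (AcFBE) at 2 h and at 219 and 57.0 FPKM at 4 h. Both treated values lay below both untreated ones. The highest value was that of 4U, and the other 3 libraries lay within a narrower range. The ratio was therefore small at 2 h (log2 -0.71, 1.63-fold lower) and larger at 4 h (-1.94, 3.84-fold lower), where the untreated level was 3.23 times that of 2U while the treated level was 1.37 times that of 2T. The 2 CCN genes also drew apart: the FPKM of CTGF was 86.2% (2 h) and 40.5% (4 h) of that of CYR61 without AcFBE, but 8.12% (2 h) and 7.22% (4 h) with it. The remaining 4 genes of the family, NOV, WISP1, WISP2 and WISP3, were listed at 0 in all 4 libraries.

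AXL, a receptor tyrosine kinase for the ligand GAS6, lies on chromosome 19 (41725128 to 41767671, plus strand). It was at 118 FPKM without and 50.1 with AcFBE at 2 h, and 102 without and 47.2 with it at 4 h. The 2 untreated libraries were close to each other, and so were the 2 treated ones, each pair of equal treatment differing by 1.16-fold and 1.06-fold. The level was 2.36-fold lower at 2 h (log2 -1.24) and 2.17-fold lower at 4 h (-1.12). Such a pattern was not rare, since 10.2% of 5199 background genes were at least 2-fold lower at both times. At 4 h the ratio relative to the median of all genes was -0.76 and no longer 2-fold. TYRO3, a receptor of the same family, was at 3.50 (DMSO) and 1.20 (AcFBE) FPKM at 2 h and 3.04 and 0.841 FPKM at 4 h, lower in both treated libraries. GAS6 was at 3.43 FPKM (DMSO) and 6.96 FPKM (AcFBE) at 2 h and at 9.34 and 4.02 FPKM at 4 h. MERTK and the ligand gene PROS1 were listed at 0 throughout. Of the 3 genes of this family with a mean of at least 1 FPKM, AXL included, 2 were at least 2-fold lower and 1 higher at 2 h, and 3 were lower at 4 h, against 18.7%, 22.6% and 27.7% of the background genes.

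ANKRD1, which encodes an ankyrin repeat protein of the nucleus and, in muscle, of the sarcomere, lies on chromosome 10 (92671853 to 92680844, minus strand). Its level lay on the other side of the controls from those of CTGF and AXL, at 0.229 FPKM without and 1.48 with AcFBE at 2 h, and 0.438 without and 2.48 with it at 4 h. Both treated libraries were above both untreated ones. It was 6.46-fold higher at 2 h (log2 2.69) and 5.66-fold higher at 4 h (2.50), the 181st highest of the 5211 ratios and the 50th highest of the 5392. At both times 8.31% of the background genes were at least 2-fold higher. The level was low, and with 1 added to each FPKM the log2 ratios were 1.01 and 1.27. Its mean reached 1 FPKM only through the treated libraries, so its ranks among the background genes depend on where it was high.

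AMOTL2, an angiomotin-like scaffold that binds YAP1 and holds it in the cytoplasm, lies on chromosome 3 (134074189 to 134094321, minus strand). It was at 2.42 FPKM (DMSO) and 3.94 FPKM (AcFBE) at 2 h and at 6.02 and 4.53 FPKM at 4 h. The treated values lay between the 2 untreated ones, so the ratio was above 0 at 2 h (log2 0.70) and below 0 at 4 h (-0.41), and neither reached 2-fold. Ratios of opposite sign at the 2 times were found in 34.0% of background genes. LATS2, the kinase that phosphorylates YAP1 and is itself a target of it, lies on chromosome 13 (21547175 to 21635725, minus strand). Its 2 h level was 0.0806 FPKM with DMSO and 0.186 with AcFBE, and it was listed at 0 in 4U and 4T, where no gene had a value between 0 and 0.2. LATS1 was listed at 0 in all 4 libraries.

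YAP1 lies on chromosome 11 (101981178 to 102104155, plus strand). It was at 0.555 FPKM without and 2.22 with AcFBE at 2 h, and 1.23 without and 1.91 with it at 4 h. Both treated libraries were above both untreated ones, by 4.00-fold at 2 h (log2 2.00) and by 1.55-fold at 4 h (0.64). These levels were low as well, and with 1 added to each FPKM the log2 ratios were 1.05 and 0.38. Its mean, too, reached 1 FPKM only through the treated libraries. With 4U in place of 2U the 2 h log2 ratio was 0.85, under 2-fold. WWTR1, the second coactivator, had the higher FPKM of the pair in every library. It was at 5.28 (DMSO) and 7.58 (AcFBE) FPKM at 2 h and 9.96 and 5.72 FPKM at 4 h. TEAD1 lies on the same chromosome as YAP1 (12695968 to 12966284, plus strand) and was at 0.189 FPKM (DMSO) and 0.0874 FPKM (AcFBE) at 2 h and at 0.470 and 0.379 FPKM at 4 h. Its log2 ratio was -1.12 at 2 h and -0.31 at 4 h. Among the 4 TEAD genes TEAD4 had the highest level in all 4 libraries, at 4.69 (DMSO) and 16.6 (AcFBE) FPKM at 2 h and 10.6 and 9.20 FPKM at 4 h. By FPKM, TEAD1 was thus a minor member of the family here. Whether the same holds for transcript numbers in the cells was not tested.

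Many of the lowest values at 2 h stood in ratios of small whole numbers. For the 2220 genes under 0.6 FPKM in both 2 h libraries, 33.2% of the ratios of 2U to 2T lay within 0.5% of 1.082 times a fraction of whole numbers up to 5, against a median of 3.96% over constants from 0.9 to 1.199, of which 1.082 was the one with the highest share. At 4 h the constant was sought anew, and the highest share was 8.76% at 1.029, against a median of 6.50%. It was taken over 1678 genes, none of them under 0.2 FPKM in either library. Of the 8 genes, LATS2 and TEAD1 were among these genes at 2 h, and their ratios matched 2 to 5 and 2 to 1. The true numbers of reads may be multiples of these and are not known, for these or for the other genes.

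**Figure D2:**
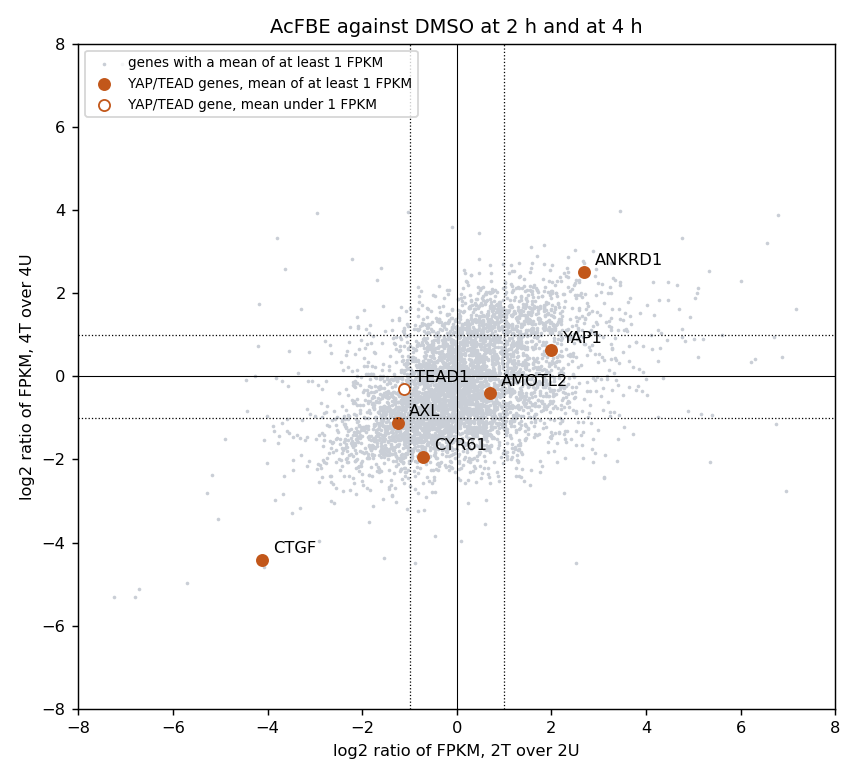
Log2 ratio of FPKM for 2T over 2U (horizontal axis) and 4T over 4U (vertical axis), 1 point per gene, grey for background genes with a mean of at least 1 FPKM (10 lie beyond the axis limit of 8) and orange for the YAP/TEAD genes with a ratio at both times, the open point having a mean under 1 FPKM. Dotted lines mark 2-fold, and CTGF (-4.11 and -4.43) lies at the edge of the cloud while ANKRD1 lies on the opposite side.

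Time alone was compared within each treatment. The comparison of the untreated libraries rests on 2U, the library that stood apart in GAPDH and that, unlike 4U, held values under 0.2 FPKM. Between the untreated libraries, 0 of the 7 genes with a ratio were at least 2-fold lower in 4U than in 2U and 4 were at least 2-fold higher (CYR61, AMOTL2, YAP1 and TEAD1), against 9.89% and 21.6% of the 5328 background genes. The median log2 ratio of the genes was 1.15 over this interval, beside 0.15 over the background. Between the treated libraries, 0 of the 7 were at least 2-fold lower in 4T and TEAD1 alone was higher (4.34-fold), against 5.19% and 4.15% of 5206 genes. TEAD1 was at 0.0874 FPKM in 2T, and the smallest value above 0 in 4T was 0.2. Any listed 4T value would therefore have passed 2-fold. Likewise, any listed 4U value would have been above the 0.189 FPKM of TEAD1 in 2U. Over background genes the untreated libraries differed more than the treated ones, with an SD of the log2 ratios of 1.21 against 0.657. The log2 ratio of 4U over 2U was 1.69 for CYR61, 1.31 for AMOTL2 and 1.15 for YAP1, and that of 4T over 2T was 0.45, 0.20 and -0.22. The 2 h and 4 h treatment ratios of CTGF (a difference of -0.31 on the log2 scale), ANKRD1 (-0.19) and AXL (0.12) were closer to each other than those of CYR61 (-1.24), AMOTL2 (-1.11) and YAP1 (-1.36). With 1 library each, these differences between times were not tested.

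The rest of the pathway was described with lists of genes. Among 19 further YAP/TAZ targets, 11 had a mean of at least 1 FPKM. Of these, 3 were at least 2-fold lower and 1 higher at 2 h, and 5 lower and 2 higher at 4 h, where the background shares were 18.7% lower and 22.6% higher at 2 h and 27.7% and 16.4% at 4 h. Their median log2 ratio was 0.15 at 2 h and -0.20 at 4 h, beside 0.03 and -0.35 over the background. Like the 8 genes, they lay on both sides of the controls.

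Those at least 2-fold lower at both times included FJX1 and NUAK2. NUAK2, a kinase related to AMPK, was at 1.85 (DMSO) and 0.244 (AcFBE) FPKM at 2 h and 2.25 and 0.387 FPKM at 4 h. Its mean reached 1 FPKM only through the DMSO libraries, so its place in the counts of lower genes depends on where it was high. FJX1, a secreted protein of the four-jointed family, was at 3.26 (DMSO) and 1.39 (AcFBE) FPKM at 2 h and at 5.07 and 1.63 FPKM at 4 h. In both genes each treated value lay below both untreated ones.

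MYOF, a membrane protein that takes part in membrane repair, was the only gene of the list at least 2-fold higher at both times, with 1.47 FPKM (DMSO) and 3.78 FPKM (AcFBE) at 2 h and at 1.06 and 3.20 FPKM at 4 h. IGFBP3, which binds insulin-like growth factors, was at 85.5 FPKM without and 44.8 with AcFBE at 2 h, and 69.2 without and 20.7 with it at 4 h. GADD45A, a growth arrest gene, was at 41.1 and 25.4 FPKM and at 64.1 and 23.5. Both were lower in each treated library, though by under 2-fold at 2 h. CCDC80, a matrix protein, was at 13.6 and 18.7 FPKM and at 10.9 and 13.9.

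Upstream of YAP1, 5 of 13 Hippo kinases and scaffolds had a mean of at least 1 FPKM. At 2 h 0 of them were at least 2-fold lower and 1 was higher, and at 4 h 1 was lower and 0 were higher, with medians of -0.03 and -0.71. Of the background genes 18.7% were lower and 22.6% higher at 2 h, and 27.7% and 16.4% at 4 h, with medians of 0.03 and -0.35. The 4 h median of the list was -0.09 for genes with at least 1 FPKM in every library and 0.02 with no filter. MOBKL1B (MOB1A), the activator of the LATS kinases, was at 6.17 (DMSO) and 4.91 (AcFBE) FPKM at 2 h and 6.79 and 6.37 FPKM at 4 h. NF2, the scaffold merlin, was at 2.28 and 2.23 FPKM and at 1.32 and 1.46. Both stayed within 2-fold. JUB (AJUBA), a LIM protein that binds LATS kinases, accounted for both counts, at 1.72 FPKM (DMSO) and 13.7 FPKM (AcFBE) at 2 h and at 21.0 and 8.56 FPKM at 4 h.

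Of the coactivators, TEAD factors and their inhibitors, 5 of 11 reached a mean of 1 FPKM, YAP1 and AMOTL2 among them. YAP1 reached it only through the treated libraries. At 2 h 2 of the 5 were at least 2-fold higher (YAP1 and TEAD4) and 0 lower, and at 4 h 0 passed 2-fold in either direction, with medians of 0.70 and -0.41. Higher genes made up 22.6% of the background at 2 h and 16.4% at 4 h, and lower genes 18.7% and 27.7%.

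Actin genes and targets of the serum response factor SRF, some of which also respond to YAP, were a last list, with 15 of 16 genes at a mean of at least 1 FPKM. At 2 h, 14 had a ratio, of which 2 were at least 2-fold lower and 5 higher (median 0.40), and at 4 h 2 were lower and 2 higher (median -0.23), beside background shares of 18.7% and 22.6% at 2 h and of 27.7% and 16.4% at 4 h. VCL, the focal adhesion protein vinculin, was the only one past 2-fold the same way at both times, at 2.21 (DMSO) and 6.52 (AcFBE) FPKM at 2 h and 4.51 and 9.51 FPKM at 4 h. ACTG1 was at 962 and 2951 FPKM and at 2551 and 4029, ACTB at 653 and 2305 and at 2198 and 1827, and TPM2 at 585 and 832 and at 619 and 529.

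**Figure D3:**
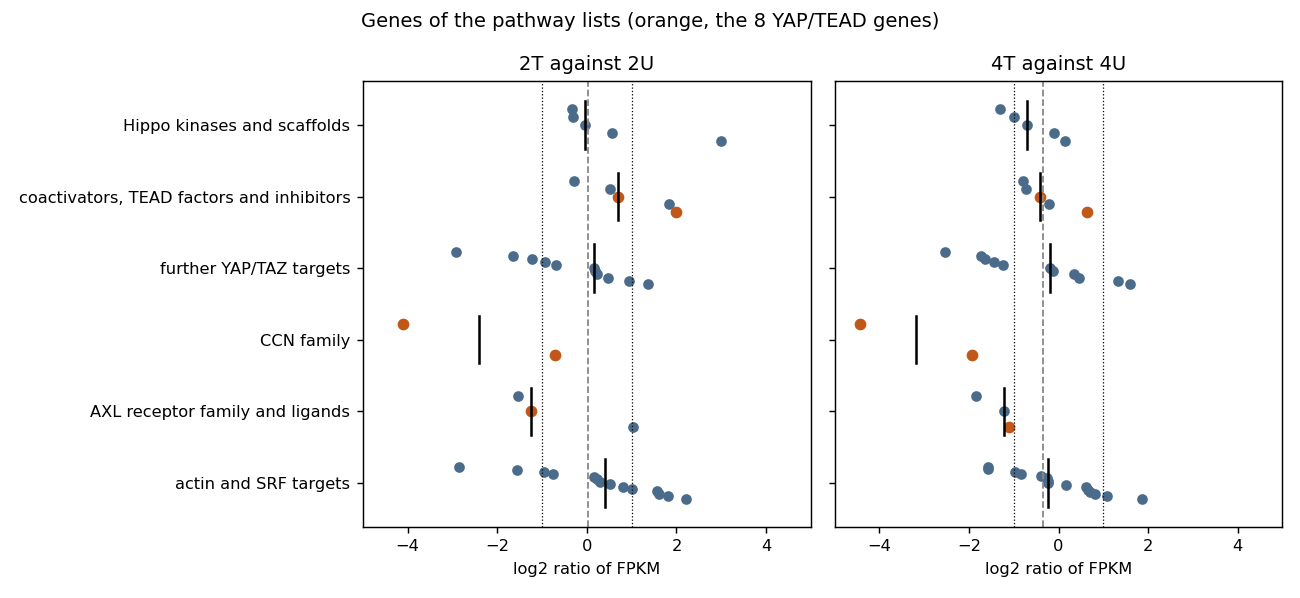
Log2 ratio of FPKM (horizontal axis) for the genes of each list (rows) with a mean of at least 1 FPKM, at 2 h (left) and 4 h (right), 1 point per gene, orange for the 8 genes, with the list median as a black bar, the background median as a dashed line and 2-fold as dotted lines. Genes of the further YAP/TAZ targets lie on both sides of 0, and the CCN genes lie to the left.

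The genes whose levels over the 4 libraries were most like those of CTGF were found by the distance between log2(FPKM + 1) profiles centred on their mean. The nearest 5 were IER2 (distance 0.142), MIR1184-1 (0.385), MIR1184-3 (0.622), EGR1 (0.711) and FOS (0.720). IER2, an immediate early gene, was at 69.5 (DMSO) and 4.13 (AcFBE) FPKM at 2 h and 114 and 4.75 FPKM at 4 h, almost the values of CTGF. EGR1 was at 18.6 FPKM with DMSO and listed at 0 with AcFBE at 2 h, and was at 39.8 and 0.810 FPKM at 4 h, and FOS was at 29.4 and 0.193 and at 43.3 and 1.09. The values of the near-identical copies MIR1184-1 and MIR1184-3 cannot be told apart with certainty and both were listed at 0 in the treated libraries. Nearest to CYR61 were DGCR8 (0.290), ZNF137P (0.298), IER3 (0.321), PHC2 (0.443) and STEAP3 (0.452), all of which were highest in 4U. IER3, another early response gene, was at 111 (DMSO) and 54.6 (AcFBE) FPKM at 2 h and 354 and 73.9 FPKM at 4 h. The likeness rests on 4 libraries only, and many genes can share such a profile.

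**Figure D4:**
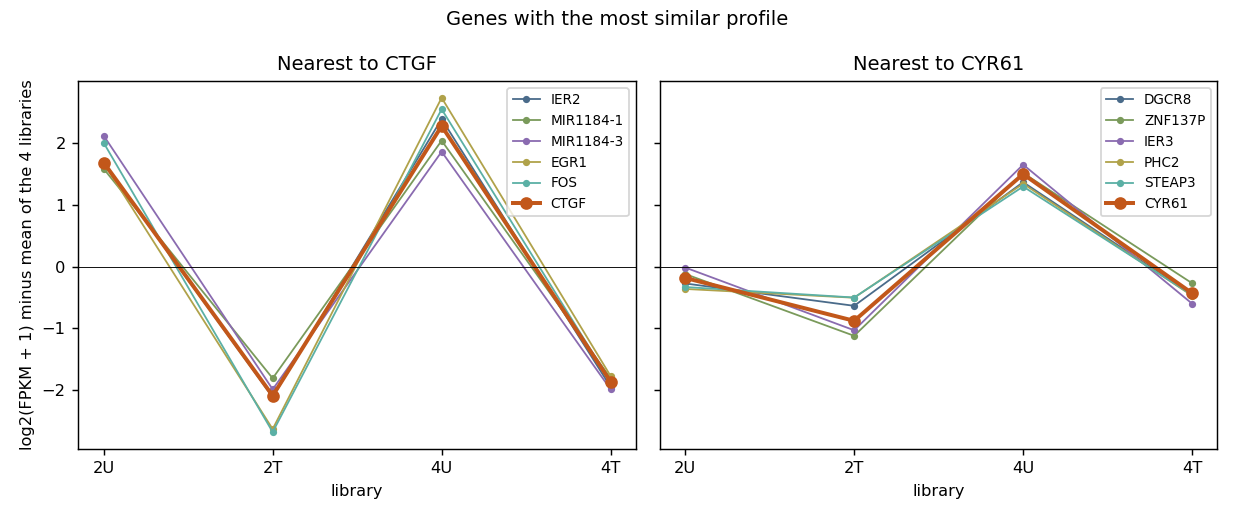
Level as log2(FPKM + 1) minus the mean of the 4 libraries (vertical axis) in each library (horizontal axis) for CTGF and its 5 nearest genes (left) and CYR61 and its 5 nearest genes (right), with the named gene as the thick orange line. CTGF and its neighbours are high in 2U and 4U and low in 2T and 4T, whereas CYR61 and its neighbours are high in 4U only.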

How the data were processed

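The SK-HEP-1 mRNA libraries were sequenced by the authors on SOLiD 3, and quality reads were mapped to hg19 (GRCh37) allowing mismatches. The study names Bowtie and Cufflinks, and the submitters' processing notes name TopHat and Cufflinks, whose versions are not given in the sources used here. The deposited values are FPKM per gene and library, without read counts. The read totals that the study states for these libraries were not used here, the number of reads behind each value is unknown, and no interval was calculated. The 3 miRNA tables were not used. Log2 ratios were calculated without pseudocount for genes above 0 in both libraries, with Python 3.11.15, numpy 2.4.6 and matplotlib 3.10.9, and the ratio and count functions were tested on simulated data. No test across genes was made, since there was 1 library per condition. Named were the 8 genes, from each list the genes past 2-fold the same way at both times and the 3 others with the highest mean, at a mean of at least 1 FPKM, and the 5 nearest genes to CTGF and to CYR61. EPCAM, COL1A1 and other markers were named from marker lists, and LATS1, MERTK, PROS1, NOV and the WISP genes were named after their values were seen. The genes, lists and alternatives were chosen with earlier results of these data known. Gene positions are from GENCODE v44lift37 and promoter letters from RefSeq. Alternatives covered pseudocount, scaling, filter, fold and control library. One gene of the list of further targets that met the naming rule is counted but not reported here by name.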

Additional observations from a re-analysis of the deposited data

Results flagged for a closer look

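Among the named genes, 8 had ratios of opposite sign at 2 and 4 h. Some genes were named because they passed 2-fold the same way at both times and could not be among them, so this count is not set against the background. With 1 library per condition, none of these differences was tested. Among the YAP/TEAD genes this was AMOTL2, whose log2 ratio was 0.70 at 2 h and -0.41 at 4 h, a difference (4 h minus 2 h) of -1.11. WWTR1 had log2 ratios of 0.52 and -0.80 (difference -1.32). TEAD4 had 1.83 and -0.20 (difference -2.03). JUB had 2.99 and -1.30 (difference -4.29). NF2 had -0.03 and 0.14 (difference 0.18). GAS6 had 1.02 and -1.22 (difference -2.24). ACTB had 1.82 and -0.27 (difference -2.09) and TPM2 0.51 and -0.23 (difference -0.73).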

How the results depend on the processing

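No paired analysis was possible because each comparison within a time had 1 library on each side, and leaving out a replicate could not be tried for the same reason. A fit of treatment and time over all 4 libraries, which would take the times as replicates and leave 1 residual degree of freedom, was not run. The count of genes at least 2-fold lower at 2 h (3) was 1 at a 3-fold threshold. The count higher at 2 h (3) was 0 when a minimum of 1 FPKM per library was set and 1 with 4U in place of 2U. The count higher at 4 h (1) was 0 with that minimum, 3 with 2U in place of 4U, 2 with the mean of 2U and 4U and 2 at a 1.5-fold threshold. Of the counts higher over time, that of 4U over 2U (4) was 2 with log2(FPKM + 1), 2 with the minimum and 1 at 3-fold, and that of 4T over 2T (1) was 0, 0 and 2 with log2(FPKM + 1), the minimum and 1.5-fold. The other 67 of 80 alternative counts were within 1.5 times the reported ones. Over the alternatives the median of the 8 genes ranged from -1.03 to 0.05 at 2 h and from -1.53 to 0.90 (2U as the control) at 4 h, so neither its sign nor its size is settled. At 4 h the list medians ranged from -0.68 to 0.02 for the Hippo genes, from -0.32 to 0.16 for the further targets and from -0.23 to 0.13 for the actin and SRF genes. CTGF stayed between -4.71 and -3.76 at 2 h and between -4.43 and -3.83 at 4 h, whereas CYR61 at 4 h was -0.25 with 2U as the control.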
